A study of Rattus norvegicus with 47 samples.

Results

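The genes described here are 10 markers of the less common granulocytes of blood and of mast cells, their tissue relatives: Fcer1a, Ms4a2, Cpa3, Hdc, Gata2, Mcpt1 and Slc18a2 for basophils and mast cells, and Epx, Prg2 and Il5ra for eosinophils. They were taken by gene symbol from the array's own annotation, which holds 20935 symbols over 27596 probe sets. A probe set is the group of short array probes that reads 1 transcript. Where a symbol had more than 1 probe set, the one with the highest mean over the time points was used. All 10 genes were found, and no filter on low values was applied before the tests.

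Blood came from 8 male spontaneously hypertensive rats (SHR), 16 weeks old, a strain with inherited high blood pressure. Each rat was bled at 0 h, before anesthesia, and at 1, 2, 3, 6 and 24 h after occlusion of the middle cerebral artery by a thread (MCAo). The occlusion was transient: the thread was withdrawn under anesthesia between the 1 h and the 2 h sample. There were 8 arrays at every time point except 6 h, which had 7, giving 47 in all. The samples from 0 to 6 h were drawn from the lateral tail vein, and the 24 h sample from the heart after an anesthetic overdose. Time and site of puncture can therefore not be told apart at 24 h. There was no sham group, so occlusion cannot be told apart from surgery, anesthesia, repeated bleeding or time of day.

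RNA was extracted from whole blood cell pellets, so the values are those of a mixture of cells. The labelled tissue could be checked against its markers. The hemoglobin genes Hba1 and Hbb had a mean log2 signal of 13.60 and 13.50 at 0 h, and the neutrophil gene S100a9 had 11.23. Genes that blood cells are not known to use gave some signal too. The 9 probe sets of a heart muscle list and a skin list lay between 5.29 and 7.10 at 0 h, and 7 of the 10 genes described here had a 0 h mean no higher than that. The deposited values carry no detection call, and levels of different probe sets say nothing of relative abundance. Fewer cells of a type and less RNA per cell cannot be told apart in such samples.

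Basophils and mast cells carry the high-affinity receptor for IgE, which is built from an α chain that binds the antibody (Fcer1a), a β chain that amplifies the signal (Ms4a2) and paired γ chains (Fcer1g) that many other leukocytes also use. Crosslinking of the receptor releases histamine, which is made by histidine decarboxylase (Hdc) and loaded into granules by the vesicular monoamine transporter VMAT2 (Slc18a2), together with proteases such as carboxypeptidase A3 (Cpa3) and the chymases (Mcpt genes). Eosinophils depend on interleukin 5, whose receptor has its own α chain (Il5ra) and a β chain shared with the receptors for interleukin 3 and GM-CSF (Csf2rb), and they store peroxidase (Epx) and major basic protein (Prg2). GATA2 is a transcription factor of progenitors, mast cells and basophils, and binds DNA at GATA letters.

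Promoter sequence was available for 8 of the 10 genes (RefSeq, build GRCr8). The 250 bases before the annotated start were searched on both strands for the GATA letters with A or T before them and A or G after them, that is AGATAA or AGATAG as well as TGATAA or TGATAG. The matches printed here did not overlap. Of all 33469 rat promoters of that length, 27.0% held at least 1 match. Among the 8 genes, 3 did: Fcer1a at 93 bases before the start, Cpa3 at 249 and 55 bases, and Mcpt1 at 105 bases. The sequences of Fcer1a and Cpa3, with matches in capitals, and those of Hdc and Il5ra, which hold no such letters in this window, are shown 5′ to 3′, because Fcer1a, Hdc and Il5ra fell over the same hours in blood while Cpa3 did not pass the test. A match is only a description of the letters.
Fcer1a, chr13:88224680-88224929, minus strand: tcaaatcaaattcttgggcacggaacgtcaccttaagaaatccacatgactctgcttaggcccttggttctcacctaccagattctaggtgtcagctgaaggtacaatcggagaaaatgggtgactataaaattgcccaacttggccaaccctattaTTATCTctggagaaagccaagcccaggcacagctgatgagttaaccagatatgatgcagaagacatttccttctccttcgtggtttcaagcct
Cpa3, chr2:104673238-104673487, minus strand: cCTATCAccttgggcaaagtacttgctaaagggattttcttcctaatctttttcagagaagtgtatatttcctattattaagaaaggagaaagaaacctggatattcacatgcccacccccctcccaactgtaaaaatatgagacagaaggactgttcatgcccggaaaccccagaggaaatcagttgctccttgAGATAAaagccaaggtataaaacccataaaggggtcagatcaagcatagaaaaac
Hdc, chr3:134318705-134318954, minus strand: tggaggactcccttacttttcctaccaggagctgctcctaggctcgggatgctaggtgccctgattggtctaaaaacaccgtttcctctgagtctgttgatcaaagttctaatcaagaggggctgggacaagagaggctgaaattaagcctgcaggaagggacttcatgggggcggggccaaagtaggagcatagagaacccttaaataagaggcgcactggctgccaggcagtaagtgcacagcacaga
Il5ra, chr4:141220066-141220315, minus strand: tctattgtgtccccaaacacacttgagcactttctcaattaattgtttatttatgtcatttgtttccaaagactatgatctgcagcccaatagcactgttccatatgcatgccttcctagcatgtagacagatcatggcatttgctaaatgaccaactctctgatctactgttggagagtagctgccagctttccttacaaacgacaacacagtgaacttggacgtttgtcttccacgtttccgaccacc

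The first question was which of the genes varied over the time course at all. By limma's moderated F-test, adjusted over all probe sets, 8 of the 10 genes changed, and Cpa3 and Epx did not pass (adjusted p = 0.678 and 0.115). Change was common in these samples, since 55.5% of all probe sets passed the same test, so this share is no result about the 10 genes. What set them apart from each other was direction and time. Fcer1a, Ms4a2, Hdc and Il5ra fell at 2, 3 and 6 h, whereas Prg2, Slc18a2, Mcpt1 and Gata2 were higher at 1 h. The plot of the 10 signals by time shows these courses.

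**Figure D1:**
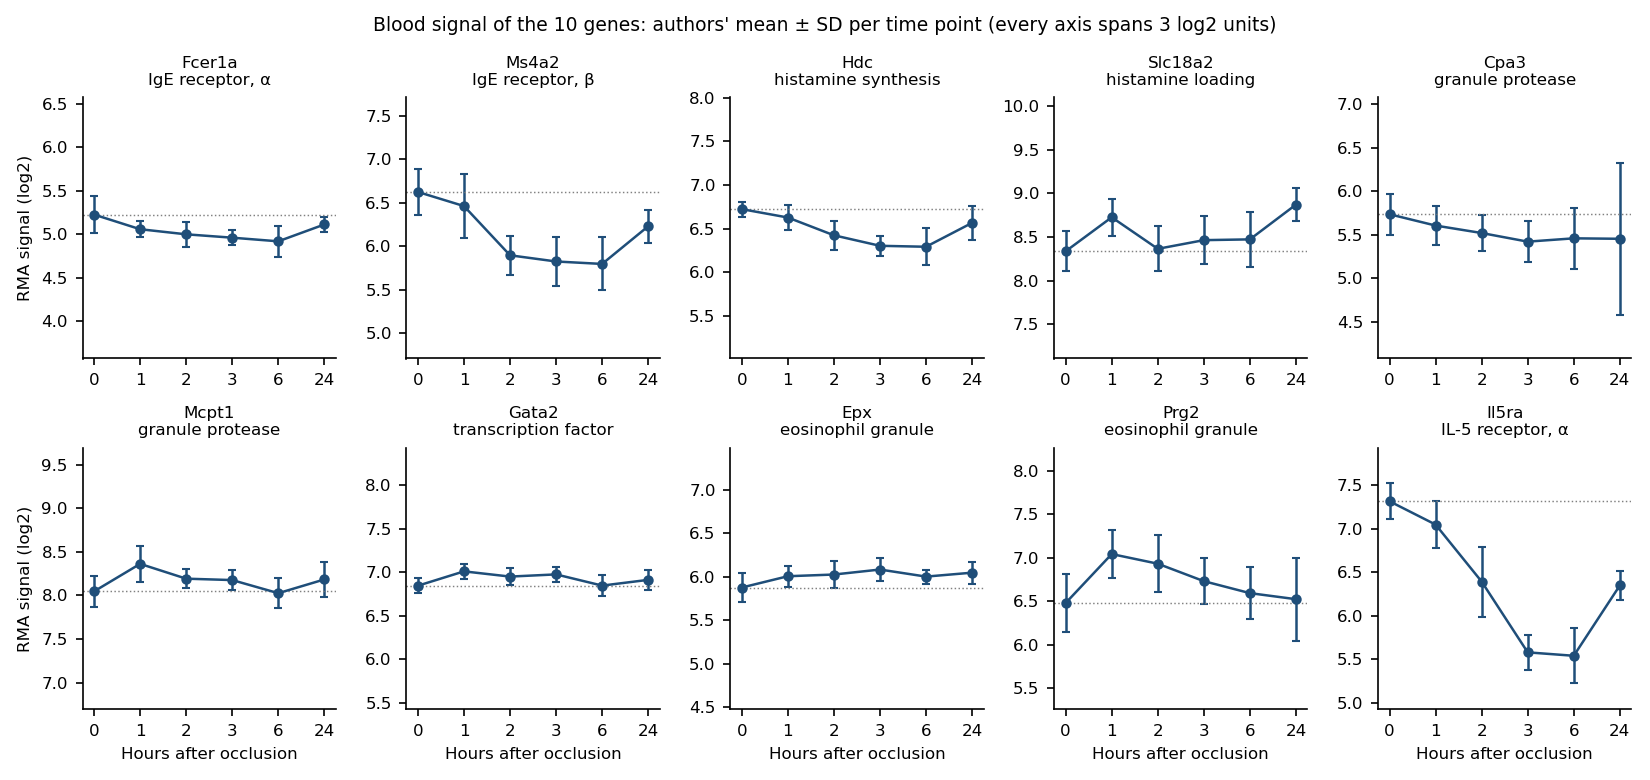
Mean RMA signal (log2, points) of each of the 10 genes with its SD (bars) at 0, 1, 2, 3, 6 and 24 h after occlusion, 8 arrays per time point and 7 at 6 h. The dotted line is the 0 h mean and every vertical axis spans 3 log2 units. Il5ra made the deepest trough, from 7.31 to 5.54 at 6 h, and Cpa3 had its widest bar, 0.87, at 24 h.

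The α chain of the interleukin 5 receptor, Il5ra (probe set 10864512, rn5 chr4:203266844-203297793, minus strand), moved most. Its signal was 7.31 ± 0.21 (authors' mean ± SD, n = 8) at 0 h, followed by 7.05 ± 0.27, 6.39 ± 0.40, 5.58 ± 0.20, 5.54 ± 0.32 (n = 7) and 6.35 ± 0.17 at 1, 2, 3, 6 and 24 h. The mean ± SD ranges of 2, 3, 6 and 24 h lay wholly below that of 0 h. Overlap is judged from these ranges throughout, since the columns of single arrays were left out. Against 0 h Il5ra was lower by 0.92, 1.74 and 1.78 at 2, 3 and 6 h on the log2 scale, the last of which is 3.42-fold (SE 0.13, adjusted p = 2.28e-15). At 1 h the difference of -0.27 did not pass (adjusted p = 0.0989). The means from 1 h on lay inside the range of the heart muscle and skin probe sets, so the folds are those of the measured signal, with no allowance for background.

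Most of the fall of Il5ra was made in consecutive steps. It fell by 0.66 between 1 and 2 h (adjusted p = 4.67e-04) and by 0.81 between 2 and 3 h (adjusted p = 3.77e-05), whereas 3 and 6 h differed by 0.04 (95% interval -0.31 to 0.23). Between 6 and 24 h it rose by 0.81 (adjusted p = 7.70e-06). At 24 h it was still 0.97 below 0 h (adjusted p = 1.85e-07), which is 54.5% of its largest change. The order of its levels was thus 0, 1, 2, 24, 3 and 6 h. Within it the neighbours 3 and 6 h did not differ beyond their spread, while 2 and 24 h, with means of 6.39 and 6.35, were not tested. The difference between 0 and 1 h missed the threshold (adjusted p = 0.0989), although its 95% interval, -0.53 to -0.0068, was wholly negative.

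The shared β chain went the other way. Csf2rb, which pairs with Il5ra and with the interleukin 3 receptor α chain Il3ra, had a signal of 8.89 ± 0.23 at 0 h, followed by 9.58 ± 0.21, 10.48 ± 0.08, 11.01 ± 0.08, 11.16 ± 0.24 and 9.75 ± 0.50 at 1, 2, 3, 6 and 24 h. It rose at every time point, by 2.27 at 6 h (adjusted p = 4.22e-19) and 0.86 at 24 h (adjusted p = 1.36e-06). Il3ra rose by 0.47, 0.55 and 0.61 at 2, 3 and 6 h (the last with adjusted p = 6.68e-08), and its difference of 0.17 at 24 h did not pass (adjusted p = 0.115). Both β and interleukin 3 α chains are also made by other leukocytes. Interleukin 5 itself, Il5, rose by 0.22 at 6 h (adjusted p = 0.0157) from a mean of 5.26 at 0 h, which lies below every heart muscle and skin probe set. Il5 did not pass the F-test over the time course (adjusted p = 0.0825).

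**Figure D2:**
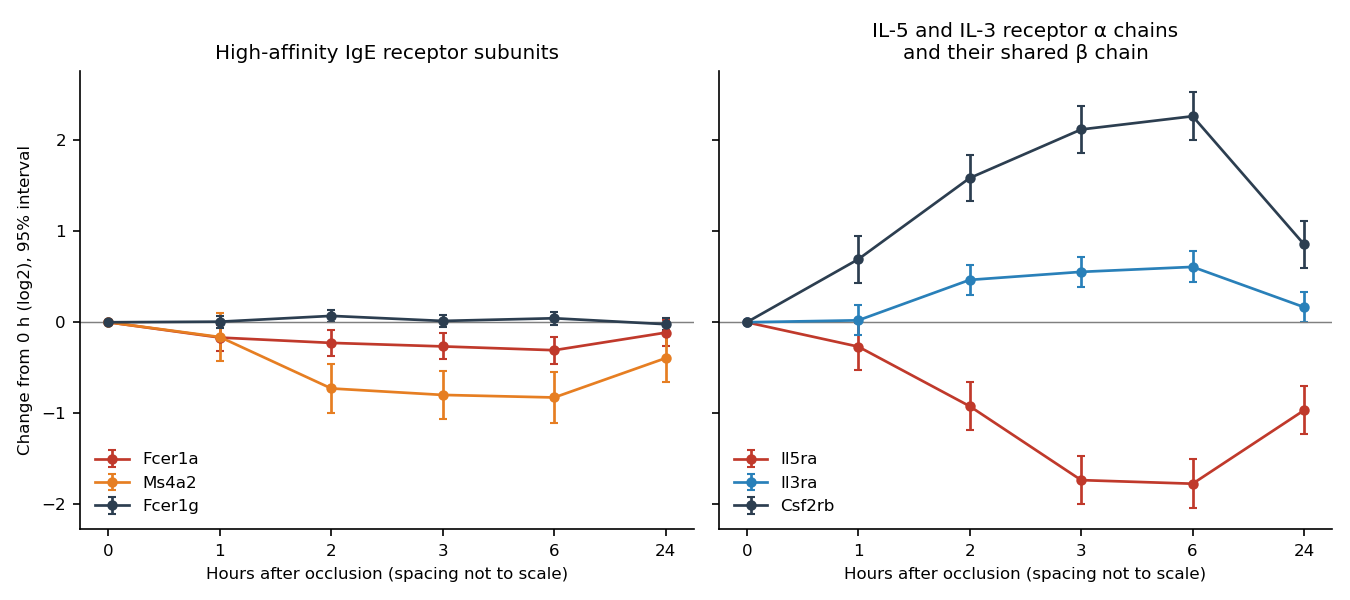
Change from 0 h (log2, vertical axis) of the subunits of the IgE receptor (left) and of the interleukin 5 and interleukin 3 receptors (right) against hours after occlusion, with 95% intervals. Il5ra and Csf2rb moved apart to -1.78 and 2.27 at 6 h, and Fcer1g stayed within 0.07 of its 0 h mean while Ms4a2 fell by 0.83.

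Of the 3 chains of the IgE receptor, Ms4a2 and Fcer1a fell and Fcer1g passed at no time. Ms4a2 (10714008, rn5 chr1:235019783-235027732, minus strand), the β chain, had a signal of 6.62 ± 0.27 at 0 h, followed by 6.46 ± 0.37, 5.90 ± 0.23, 5.83 ± 0.28, 5.80 ± 0.30 and 6.23 ± 0.19 at 1, 2, 3, 6 and 24 h. Its mean ± SD ranges at 2, 3 and 6 h lay below that of 0 h, and those at 1 and 24 h overlapped it. Ms4a2 fell by 0.73, 0.80 and 0.83 at 2, 3 and 6 h (at 6 h 1.77-fold, SE 0.14, adjusted p = 2.97e-06). It dropped in 1 step, by 0.57 between 1 and 2 h (adjusted p = 0.00329), changed by -0.07 and -0.03 in the next 2 steps, neither of which passed, and rose by 0.43 between 6 and 24 h (adjusted p = 0.0197). At 24 h it remained 0.39 below 0 h (adjusted p = 0.0208).

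Fcer1a (10770057, rn5 chr13:96245252-96251550, minus strand), the α chain, had a signal of 5.23 ± 0.21 at 0 h, followed by 5.06 ± 0.09, 5.00 ± 0.14, 4.96 ± 0.08, 4.92 ± 0.18 and 5.11 ± 0.09 at 1, 2, 3, 6 and 24 h. The ranges at 0 h and 6 h overlapped, although the fitted fall passed the test. Fcer1a fell by 0.23, 0.27 and 0.31 at 2, 3 and 6 h (at 6 h 1.24-fold, SE 0.07, adjusted p = 6.80e-04). At 24 h the difference was -0.11 (adjusted p = 0.222), and that of -0.17 at 1 h passed only when the time points were rescaled (adjusted p = 0.0567, and 0.0158 after centring). The γ chain Fcer1g had a signal between 12.85 and 12.94 at all 6 time points with an SD of at most 0.05, and none of its 5 differences from 0 h passed (changes from -0.02 to 0.07; the sign at 1, 3 and 24 h depended on the scaling). The differences between the 3 chains were not tested. The signal of Fcer1g lay close to those of the hemoglobin genes, and that of Fcer1a below every heart muscle and skin probe set, and what a signal that high or that low does to the size of a change was not tested.

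The kinases that act below the receptor, which most leukocytes share, were measured as part of a list of 29 other genes of basophils and mast cells. Lyn rose by 0.45 at 6 h (adjusted p = 4.23e-07) and Syk by 0.35 (adjusted p = 3.22e-05). Btk differed by -0.08 at 6 h (adjusted p = 0.449) and fell by 0.23 at 1 h (adjusted p = 0.0156).

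Of the genes that make and store histamine, Hdc was called lower at 2, 3 and 6 h and Slc18a2 higher at 1 and 24 h, and the difference between the 2 genes was not tested. Hdc (10849522, rn5 chr3:125585067-125603283, minus strand), the enzyme that makes histamine from histidine, had a signal of 6.72 ± 0.09 at 0 h, followed by 6.63 ± 0.15, 6.42 ± 0.17, 6.30 ± 0.11, 6.29 ± 0.21 and 6.56 ± 0.19 at 1, 2, 3, 6 and 24 h. The ranges at 2, 3 and 6 h lay below that of 0 h. Hdc fell by 0.30, 0.42 and 0.43 at 2, 3 and 6 h (at 6 h 1.35-fold, SE 0.08, adjusted p = 2.42e-05). No single step down passed, and the step from 6 to 24 h, a rise of 0.27, did (adjusted p = 0.0113), but not with the spread of those 2 time points alone (adjusted p = 0.0634). At 24 h the difference from 0 h was -0.16 (adjusted p = 0.119), 36.5% of the largest change.

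Slc18a2 (10716436, rn5 chr1:287783563-287817632, plus strand), which pumps histamine and serotonin into granules, had a signal of 8.34 ± 0.23 at 0 h, followed by 8.73 ± 0.21, 8.36 ± 0.26, 8.46 ± 0.27, 8.47 ± 0.31 and 8.87 ± 0.19 at 1, 2, 3, 6 and 24 h. The 24 h range lay above that of 0 h and the others overlapped it. It rose by 0.39 at 1 h (adjusted p = 0.00838) and by 0.54 at 24 h (1.45-fold, SE 0.12, adjusted p = 5.48e-04), with differences of 0.03 to 0.14 between these times, none of which passed. The fall of 0.36 between 1 and 2 h was close to the threshold (adjusted p = 0.0445) and missed it under 4 other settings (0.0560 to 0.0620). The rise of 0.40 between 6 and 24 h passed (adjusted p = 0.0154).

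Platelets carry serotonin granules and also express VMAT2, so their genes were set beside Slc18a2. Of 10 platelet genes measured, 6, 5, 1 and 6 were higher at 1, 2, 6 and 24 h (median changes 0.29, 0.24, 0.03 and 0.28), none was lower at 1 h, and the median change of all probe sets at these times was between 0.04 and 0.05. Of all probe sets 21.7, 21.7, 22.5 and 17.4% were called higher at these times. After centring, the 5 platelet genes called at 2 h became 2. The adhesion protein Selp made the largest rise of the list at 24 h (0.53). Slc18a2 too was called higher at 1 and at 24 h, but at 2 h its difference was 0.03 and did not pass. From 6 to 24 h, when Slc18a2 rose, 3 of the platelet genes rose and 1, Selp, fell by 0.87. The part of platelets in the signal of Slc18a2 was not tested. Of 3 endothelial genes 2 were higher at 24 h, when blood was drawn from the heart, the larger rise being that of Tek (0.81, adjusted p = 2.76e-05), and their part in the 24 h values was not tested. The histamine receptor Hrh4 rose by 0.24 at 1 h (adjusted p = 0.00947) and passed at no other time. It did not pass the F-test over the time course (adjusted p = 0.111).

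**Figure D3:**
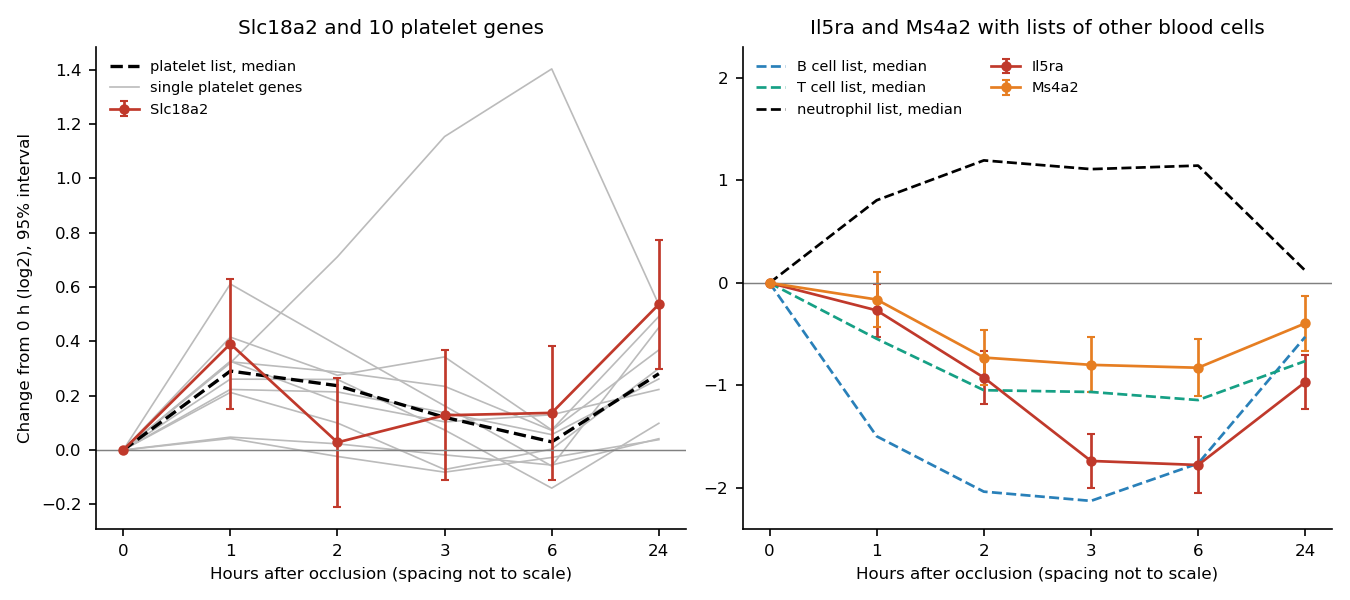
Change from 0 h (log2, vertical axis) against hours after occlusion. Left, Slc18a2 with 95% intervals beside each of 10 platelet genes (grey) and their median (dashed), which stood at 0.29, 0.03 and 0.28 at 1, 6 and 24 h (the grey line that reaches 1.40 at 6 h is Selp); right, Il5ra and Ms4a2 with 95% intervals beside the medians (dashed) of the B cell, T cell and neutrophil lists.

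Granule proteases of the mast cell lineage did not move as 1 group. Cpa3 (10822493, rn5 chr2:124745512-124777635, minus strand) had a signal of 5.74 ± 0.23 at 0 h, followed by 5.61 ± 0.23, 5.52 ± 0.21, 5.42 ± 0.24, 5.46 ± 0.35 and 5.46 ± 0.87 at 1, 2, 3, 6 and 24 h. Its mean was lower than at 0 h at every later time point, by 0.13 to 0.31, and none of these differences passed. The SD at 24 h stood out from those of 0.21 to 0.35 before it. With the 24 h samples left out of the spread, the difference of -0.31 at 3 h passed (adjusted p = 0.0300). The 95% interval at 3 h in the fit over all time points, -0.72 to 0.09, left room for a fall of up to 0.72.

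The probe set read for Mcpt1 (10780561, rn5 chr15:38754355-38854673, plus strand), the chymase of rat connective tissue mast cells, is annotated to Mcpt1 and Mcpt4 together, so the 2 genes cannot be told apart there. Its signal was 8.05 ± 0.18 at 0 h, followed by 8.36 ± 0.20, 8.19 ± 0.11, 8.18 ± 0.11, 8.03 ± 0.17 and 8.18 ± 0.21 at 1, 2, 3, 6 and 24 h. It rose by 0.32 at 1 h (1.25-fold, SE 0.08, adjusted p = 0.00241) and passed at no other time, except that differences of 0.23 to 0.26 at 2, 3 and 24 h passed after quantile normalization. The other Mcpt1 probe set (10780554, rn5 chr15:38754324-38757641), which names Mcpt1 alone, had a mean between 3.55 and 3.76 and did not pass at any time (0.17 at 1 h, adjusted p = 0.0937). A probe set that names Mcpt4 alone (10780543) had a 0 h mean of 3.33 and passed at no time against 0 h (0.11 at 1 h, adjusted p = 0.264). One annotated to Mcpt4l1 and Mcpt4 (10780538), with a 0 h mean of 4.98, was higher at 2, 3 and 24 h but not at 1 h (0.08, adjusted p = 0.360). The rise at 1 h was thus seen only on the shared probe set.

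Other Mcpt proteases of the list of related genes fell by more than 1 log2 unit. Mcpt8, a protease known from basophils, had a signal of 6.32 ± 0.41 at 0 h, followed by 6.42 ± 0.37, 5.89 ± 0.35, 5.47 ± 0.38, 4.93 ± 0.28 and 5.91 ± 0.49 at 1, 2, 3, 6 and 24 h, a fall of 1.38 at 6 h (2.60-fold, adjusted p = 5.51e-08). Its means lay inside the range of the heart muscle and skin probe sets, and at 6 h below it. Its relatives Mcpt9 and Mcpt10 fell by 1.33 and 1.57 at 6 h (adjusted p = 1.69e-11 and 1.21e-12) and were still lower by 0.66 and 0.70 at 24 h. All 3 rose again between 6 and 24 h, by 0.97, 0.67 and 0.87. These genes are near copies of each other, so their probes may share signal, and the probe set of Mcpt10 is placed on no chromosome in rn5. A second Mcpt10 probe set, placed on chromosome X, fell by 0.56 at 6 h (adjusted p = 0.00230).

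Other genes of the same list that are known from tissue mast cells went in both directions. Mcpt2, the chymase of mucosal mast cells, fell by 0.58 at 6 h (adjusted p = 0.00717) and 0.48 at 24 h (adjusted p = 0.0306), and Cma1 by 0.21 at 6 h (adjusted p = 0.0333). The tryptase Tpsab1 rose by 0.27 at 3 h (adjusted p = 2.45e-04) from 5.71, and Tpsb2 by 0.19 at 1 h (adjusted p = 0.00569) from 6.35. Cma1 and Tpsb2 did not pass the F-test over the time course (adjusted p = 0.201 and 0.0664). Kit, the receptor that mast cells need to survive, passed at no time. Mcpt2, Cma1, Tpsab1, Tpsb2 and Kit had 0 h means inside the range of the heart muscle and skin probe sets, or below it.

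**Figure D4:**
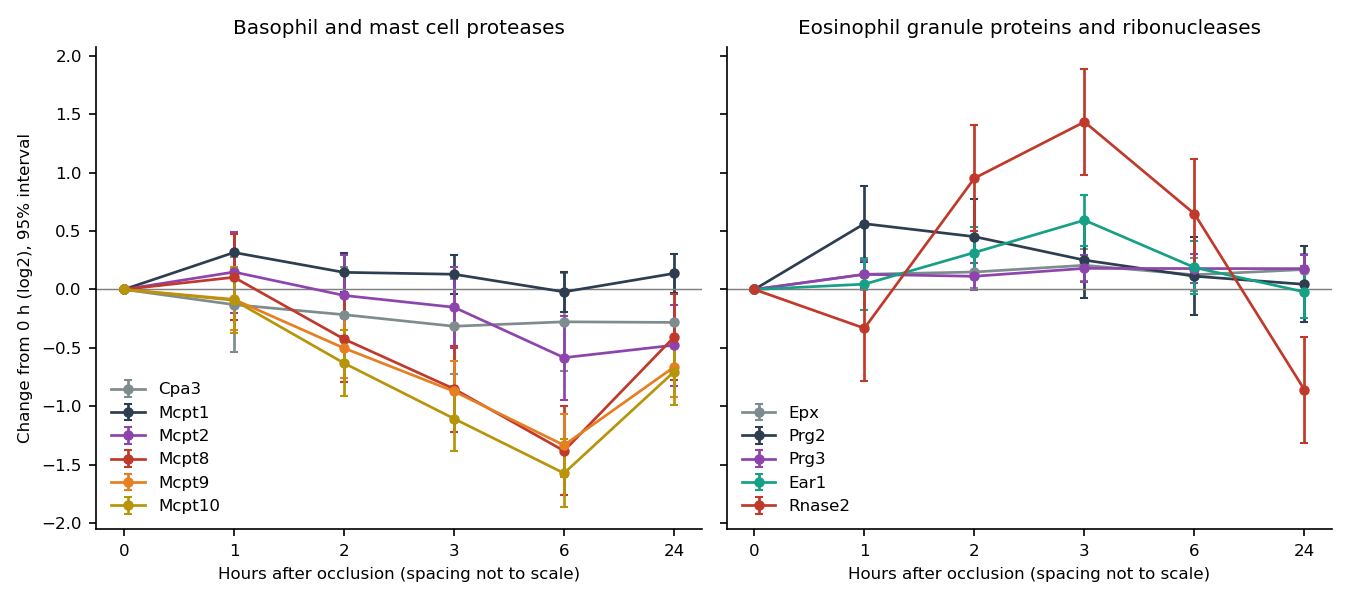
Change from 0 h (log2, vertical axis) against hours after occlusion, with 95% intervals, for basophil and mast cell proteases (left) and for eosinophil granule proteins and ribonucleases (right). Mcpt8, Mcpt9 and Mcpt10 reached -1.33 to -1.57 at 6 h and rose again by 24 h, while Cpa3 lay between -0.31 and 0 and Mcpt1 was highest at 1 h with 0.32; on the right Rnase2 rose to 1.43 at 3 h and ended at -0.86.

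Gata2 (10857112, rn5 chr4:185375167-185383944, plus strand) had a signal of 6.84 ± 0.09 at 0 h, followed by 7.01 ± 0.08, 6.95 ± 0.10, 6.97 ± 0.09, 6.84 ± 0.12 and 6.91 ± 0.12 at 1, 2, 3, 6 and 24 h. It rose by 0.16 at 1 h (1.12-fold, SE 0.05, adjusted p = 0.0129) and by 0.13 at 3 h (adjusted p = 0.0409). Both calls were lost when each time point was centred on its median (adjusted p = 0.0910 and 0.167), so the small rise depended on the scaling. At 6 h, when Ms4a2, Hdc and Il5ra were at their lowest, Gata2 lay within 0.11 of its 0 h mean by the 95% interval (-0.11 to 0.11), and the sign of its difference depended on the scaling. Its relative Gata1, which works in eosinophils, erythroid cells and platelets, rose by 0.67 at 1 h (adjusted p = 4.46e-05), 0.32 at 2 h (adjusted p = 0.0363), 0.36 at 3 h (adjusted p = 0.0181) and 0.33 at 24 h (adjusted p = 0.0386). Of 9 erythroid genes 4, 0, 2 and 4 were higher at these times, and of 10 platelet genes 6, 5, 2 and 6, the 5 at 2 h becoming 2 after centring. Their part in the change of Gata1 was not tested.

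The proteins of the eosinophil granule did not follow Il5ra. Prg2 (10837381, rn5 chr3:78895715-78899281, plus strand), major basic protein, had a signal of 6.48 ± 0.34 at 0 h, followed by 7.04 ± 0.28, 6.93 ± 0.33, 6.73 ± 0.27, 6.60 ± 0.30 and 6.53 ± 0.48 at 1, 2, 3, 6 and 24 h. The 1 h and 0 h ranges overlapped by little, and those from 3 h on overlapped widely. Prg2 rose by 0.56 at 1 h (1.48-fold, SE 0.16, adjusted p = 0.00548) and by 0.45 at 2 h (adjusted p = 0.0222). From 3 h on its differences of 0.25, 0.11 and 0.04 did not pass, and at 24 h 7.79% of the largest change was left.

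Epx (10746066, rn5 chr10:74923964-74941232, plus strand), eosinophil peroxidase, had a signal of 5.87 ± 0.16 at 0 h, followed by 6.00 ± 0.12, 6.02 ± 0.15, 6.08 ± 0.13, 6.00 ± 0.08 and 6.05 ± 0.13 at 1, 2, 3, 6 and 24 h. It rose by 0.21 at 3 h (1.15-fold, SE 0.07, adjusted p = 0.0114) and 0.17 at 24 h (adjusted p = 0.0495), and these calls were lost after quantile normalization (adjusted p = 0.175 and 0.292). The call at 24 h was also lost after centring (adjusted p = 0.157) and with the spread of the compared time points alone (adjusted p = 0.0840). Rises of the size of those of Epx were also seen in heart muscle genes, which blood cells are not known to use. Of the 6 heart muscle genes, 3 were higher at 3 h and 3 at 24 h, the largest by 0.22 and 0.23. The number called became 1 at each of these times after quantile normalization. The part of these genes in the change of Epx was not tested.

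Ribonucleases related to those of the eosinophil granule took another course. Rnase2 was higher by 0.95 at 2 h and 1.43 at 3 h (adjusted p = 1.07e-06) and lower by 0.86 at 24 h (adjusted p = 0.00321), and Ear1 rose by 0.59 at 3 h (adjusted p = 1.76e-05) from a very low mean of 3.49. Of 10 monocyte genes 4 were higher and 4 lower at 2 h, and 4 higher and 5 lower at 3 h. Among those higher was Cd14, by 1.38 and 1.84. The part of other cells in the change of Rnase2 was not tested. Prg3, a relative of Prg2, rose by 0.18 at 3, 6 and 24 h (adjusted p = 0.00989, 0.0145 and 0.0167). Surface proteins of the eosinophil list went both ways. The lectin Siglec5 rose at every time point, by 0.59 at 2 h (adjusted p = 2.80e-08) and 0.50 at 24 h (adjusted p = 3.42e-06). Ccr3, the eotaxin receptor, fell by 0.76 at 3 h (adjusted p = 1.37e-06), Adgre1 by 1.90 at 6 h (adjusted p = 8.64e-16) and Cd24 by 1.50 at 3 h (adjusted p = 7.49e-14), although Adgre1 is also made by monocytes and Cd24 by B cells.

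Against 0 h, 4 of the 10 genes had passed at 1 h, and all were higher (Gata2, Mcpt1, Slc18a2 and Prg2), when 21.7% of all probe sets were called higher and 15.4% lower. None of the 10 was called lower at 1 h by limma, and 2 were at an unadjusted p below 0.05. At 2 h 1 was higher and 4 lower (all probe sets 21.7% and 18.6%), at 3 h 2 were higher and 4 lower (27.3% and 19.2%), at 6 h none was higher and 4 lower (22.5% and 19.3%), and at 24 h 2 were higher and 2 lower (17.4% and 13.9%). At 6 h none was higher at an unadjusted p below 0.05 either. The 4 genes called lower at 2, 3 and 6 h were the same each time: Fcer1a, Ms4a2, Hdc and Il5ra. The median change of the 10 genes was 0.02, -0.09, -0.07, -0.15 and -0.035 at the 5 times, beside 0.05, 0.05, 0.07, 0.05 and 0.04 over all probe sets.

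The split of these calls moved with the scaling. After each time point was centred, 3 of the 10 genes were higher and 1 lower at 1 h, 1 higher and 4 lower at 3 h, and 1 higher and 2 lower at 24 h. Their split at 2 and 6 h was not moved by centring. Over all probe sets centring turned 5997 higher and 4240 lower at 1 h into 3465 and 5189. At 2 h it turned 6002 and 5137 into 4443 and 5602, and at 3 h 7539 and 5296 into 5284 and 5911. At 6 h it turned 6213 and 5326 into 4670 and 5808, and at 24 h 4794 and 3826 into 2749 and 4627. After quantile normalization 4 of the 10 genes were higher and 1 lower at 1 h, 2 higher and 4 lower at 2 h, and 1 higher and 4 lower at 3 h.

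Between neighbouring times, 3 of the 10 genes fell from 1 to 2 h (Ms4a2, Slc18a2 and Il5ra), beside 4.11% of all probe sets that fell and 4.66% that rose. That step spans the withdrawal of the thread and a further anesthesia, which cannot be told apart from time. From 2 to 3 h only Il5ra among the 10 fell (1.62% of all probe sets fell and 1.9% rose). From 3 to 6 h limma called none, with 1 at an unadjusted p below 0.05, Gata2 (2.44% fell and 2.34% rose). From 6 to 24 h 4 rose, Ms4a2, Hdc, Slc18a2 and Il5ra, beside 10.2% of all probe sets that rose and 8.68% that fell. Centring changed the split over all probe sets from 1 to 2 h, from 1287 higher and 1135 lower to 1516 and 839.

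The wider lists of these lineages moved in both directions, and so did all probe sets. Of the latter, 21.7, 21.7, 27.3, 22.5 and 17.4% were called higher at 1, 2, 3, 6 and 24 h. The shares called lower were 15.4, 18.6, 19.2, 19.3 and 13.9%, so movement both ways is no result about these lists. Of the 29 other genes of basophils and mast cells, 11, 9, 11, 10 and 7 were called higher at 1, 2, 3, 6 and 24 h, and 1, 4, 5, 7 and 3 were called lower. The count at 1 h includes Mcpt4, which is read by the probe set of Mcpt1 and so repeats its call. Their median change was 0.07 at 6 h beside 0.05 over all probe sets. After centring the split at 2 h was 8 higher and 6 lower, and after quantile normalization that at 1 h was 7 higher and 0 lower. The 7 that fell at 6 h were Mcpt8, Mcpt9, Mcpt10, Mcpt2, Cma1, the interleukin 33 receptor Il1rl1 and the prostaglandin D synthase Hpgds. The signal of Il1rl1 was 7.18 ± 0.21 at 0 h, followed by 7.37 ± 0.19, 6.73 ± 0.28, 6.08 ± 0.35, 5.90 ± 0.32 and 6.92 ± 0.49 at 1, 2, 3, 6 and 24 h. It fell by 1.28 at 6 h (adjusted p = 4.59e-09), rose by 1.02 between 6 and 24 h, and its difference of -0.26 at 24 h did not pass (adjusted p = 0.192).

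The genes of this list that rose at 6 h were the receptor chains Csf2rb and Il3ra, the kinases Lyn and Syk, the factor Mitf, the proteoglycan Srgn, which packs granule proteases, the leukotriene enzyme Alox5, the inhibitory receptor Cd200r1, and the membrane proteins Cd63 and Enpp3. At 6 h 12 of 14 neutrophil genes were higher too (median 1.14), and their part in these rises was not tested. Alox5 was highest at 2 h, by 2.11 (adjusted p = 1.11e-17), Cd63 at 6 h, by 1.92 (adjusted p = 2.34e-17), and Cd200r1 at 6 h, by 1.48 (adjusted p = 3.36e-11). Enpp3 rose at 6 h alone, by 0.81 (adjusted p = 4.28e-04). The cytokine genes Il4 and Il13, which basophils can secrete, passed at no time.

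Of the 14 other eosinophil genes measured, out of 16, 6, 6, 8, 7 and 6 were called higher at 1, 2, 3, 6 and 24 h and 2, 3, 3, 3 and 4 lower. Their median change at 6 h was 0.18, beside 0.05 over all probe sets. The serpin Serpinb10 was highest at 2 h, by 1.73 (adjusted p = 4.57e-13), the lysosomal enzyme Galc at 6 h, by 0.97 (adjusted p = 2.33e-07), and the lipoxygenase Alox15 at 24 h, by 0.70 (adjusted p = 8.06e-06). Alox15, which reticulocytes also make, rose by 0.47 at 1 h as well (adjusted p = 0.00124). At both times 4 of 9 erythroid genes were higher, and their part in the change of Alox15 was not tested. The granulocyte factor Cebpe passed at no time. The plot of the 42 distinct genes of both lists sets their changes at 6 h beside those at 24 h.

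**Figure D5:**
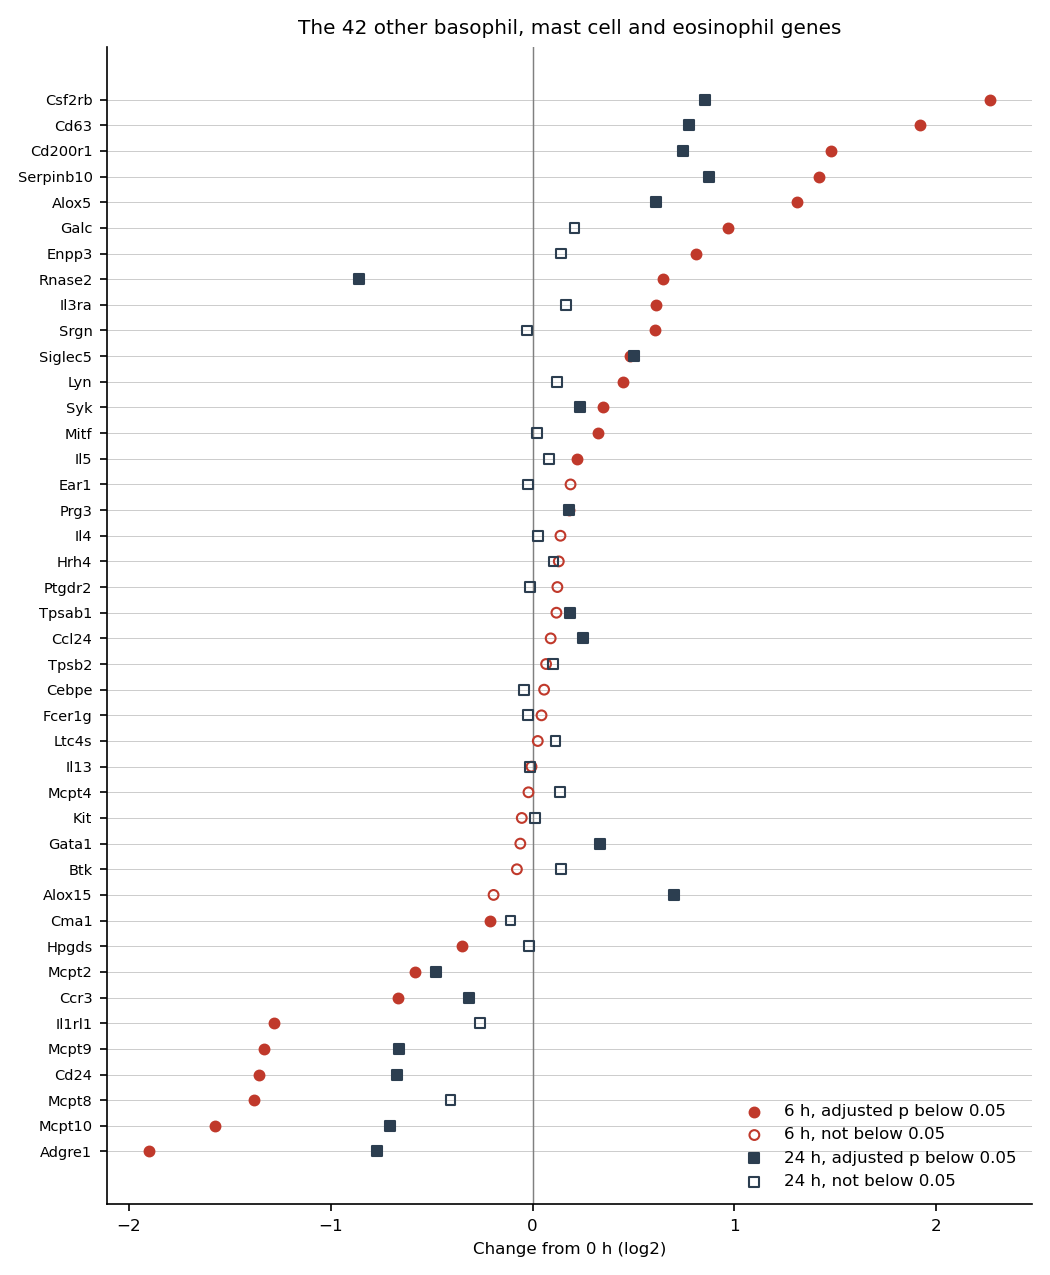
Change from 0 h (log2, horizontal axis) at 6 h (circles) and 24 h (squares) for the 42 other basophil, mast cell and eosinophil genes, ordered by the 6 h change; filled symbols passed limma's test at an adjusted p below 0.05. Csf2rb lies at the top with 2.27 and Adgre1 at the bottom with -1.90; Mcpt4 is read by the probe set that Mcpt1 shares.

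The signals of the common leukocytes changed as well. Of 14 neutrophil genes 12 were higher at 6 h (median change 1.14) and 12 fell from 6 to 24 h. All 8 T cell genes were lower at 6 h (median -1.14), and of 8 B cell genes 7 were lower at 1 h (median -1.50) and 7 at 6 h (median -1.76). Some mouse B cells also express Il5ra. The median of the B cell list was -1.50, -2.04, -2.13, -1.76 and -0.53 at 1, 2, 3, 6 and 24 h, and the change of Il5ra was -0.27, -0.92, -1.74, -1.78 and -0.97. The part of neutrophils, T cells and B cells in the changes of the 10 genes was not tested.

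Genes with the most similar course were sought for the 4 of the 10 that passed the F-test and reached a change of at least 0.5 at any time, among 12610 probe sets with a symbol that passed it too. Likeness was the root mean square distance of the 5 mean changes from 0 h, so it rests on means over 6 time points that share their 0 h arrays. For Il5ra the nearest were Lbh, Dnase2b and the T cell coreceptor Cd4, at 0.22, 0.23 and 0.30. For Ms4a2 they were Cdkal1, RGD1307947 and Snx25, at 0.04, 0.06 and 0.06. For Slc18a2 they were Mthfd2, Pnpla8 and Lgalsl, at 0.05, 0.06 and 0.06, and for Prg2 LOC362863, Tmem140 and Gstt3, at 0.06, 0.06 and 0.07. The distance is not scaled to the size of a course, so it cannot be compared between the 4 genes.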

How the data were processed

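Total RNA from blood cell pellets (PAXgene) was amplified, labelled with biotin and hybridized to Affymetrix RaGene-1_0-st-v1 arrays, which read whole transcripts. RNA workup was randomized between batches by the study's methods, and the batch of a sample was not given in the sources used here. The authors deposited log2 RMA signals (background corrected, quantile normalized and summarized per probe set), with a mean and SD per time point, on the array annotation of build rn5. Limma is the tool named in the submitters' processing notes. The table also holds the authors' fold changes, p-values, FDRs and F-tests, which were not used, and 47 single-array columns, which entered no step because no label tied their names to a rat and a time point.

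Limma's moderated statistic (R 4.3.3, limma 3.58.1) was calculated from the means and SDs per time point and the number of arrays behind each, with 1 variance per probe set over the 6 time points (41 residual and 5.71 prior degrees of freedom). The arrays were taken as independent, although each rat was sampled repeatedly, and p-values rest on that. P-values were adjusted by Benjamini-Hochberg over all 27596 probe sets, with a threshold of 0.05. Changes are differences of means on the log2 scale, folds are 2 raised to them, and intervals are 95%. "Rose" and "fell" refer to an adjusted p below 0.05. The number of arrays limits the precision. On simulated data for 6 h against 0 h over 27596 probe sets, 50 probe sets were changed at each size. There 23 of 50 changes of 0.25 were called, 43 of 50 of 0.5, and all 50 of 1. In the real data 22.5% of probe sets were called higher and 19.3% lower at 6 h. The adjustment depends on that share, so the simulated rates are not those of the tests reported here. The main test used no filter; dropping the 25% of probe sets that were dimmest on average, as an alternative, kept 8 of the 10 genes and left out Fcer1a and Cpa3.

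The 10 genes, the lists and the tests were chosen with earlier results of these data known. All 10 genes are named, and for likeness the 3 nearest probe sets. Any gene of both lists of related genes could be named, and of the other cell type lists defining markers and, at a time point compared, the gene with the largest change in the list's commoner direction; only a few of these are. A result within this rule is not reported here. In the lists, 10 symbols had no matching probe set (Csf2ra, Ear11, Gp6, Itgb3, Kdr, Krt5, Myb, Pecam1, Tspo2 and Tubb1). At 6 h the monocyte list had 4 genes higher and 5 lower of 10, the NK cell list 1 and 5 of 6, the dendritic cell list 3 and 1 of 5, and the progenitor and endothelium lists none of 3 each; at 24 h these 2 lists had 1 and 2 genes higher. Promoters are the first 250 bases of RefSeq windows on GRCr8; none was at hand for Ms4a2 and Prg2. The alternatives were centring, quantile normalization, the filter, another prior or no moderation of the variance, the spread of the compared time points only, leaving out 24 h, and other probe sets.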

Additional observations from a re-analysis of the deposited data

How the results depend on the processing

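Counts of the 10 genes called, over the time course, against 0 h and between neighbouring time points, stayed within 1.5 times of the reported count under every alternative run. The count of the 29 other basophil and mast cell genes called at 1 h was 12 and became 7 after quantile normalization. Of the other list counts 401 stayed within 1.5 times and 33 did not: platelet genes at 2 h went from 5 to 2 after centring, heart muscle genes at 3 and 24 h from 3 to 1 after quantile normalization, and endothelial genes at 24 h did not move so far under any alternative run. Of the recomputed changes of the related genes, 779 kept their direction and side of the threshold, 27 lost and 8 gained a call, and 3, all of Fcer1g, turned sign. No paired analysis was possible because no label ties the single-array columns to rats; for the same reason leaving out each rat in turn was not run. Of the recomputed changes of the 10 genes, 572 kept their direction and side of the threshold, 14 lost and 8 gained a call, and 7 turned sign, none of them called in either fit. After quantile normalization these were Cpa3 from 6 to 24 h (0.01), Gata2 at 6 h (-0.0056), Mcpt1 at 6 h (0.10) and Prg2 at 24 h (-0.0061), and after centring Gata2 at 6 h (-0.029) and Slc18a2 at 2 h (-0.0006); on its other probe set it was Mcpt1 at 24 h (-0.02). Fcer1g turned at 1 and 3 h after centring (-0.042 and -0.024) and reached 0.00 at 24 h after quantile normalization. The cause was not tested. The calls lost were of Gata2, Epx, Slc18a2, Hdc and, at 1 h on its other probe set, Mcpt1 (adjusted p = 0.0937), those gained of Mcpt1, Cpa3 and Fcer1a, and no call of Ms4a2, Prg2 or Il5ra changed. Signals no higher than those of heart muscle and skin genes limit what can be said of 7 of the 10 genes at 0 h, and of Il5ra from 1 h on.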
